A study of Rattus norvegicus with 6 samples.

Results

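The genes described here make, recycle and break down purine and pyrimidine nucleotides or carry the folate-bound carbon units that this synthesis uses. They were chosen by symbol, from a list of 39 genes, and 38 of these were among the 12121 genes measured in C6 rat glioma cells. By function, 10 of them belong to purine synthesis, 6 to pyrimidine synthesis, 11 to deoxynucleotide supply, 3 to folate and 8 to salvage and breakdown. Pfas, an enzyme of purine synthesis, was not analysed here. C6 is an established glial tumour line of the rat. The RNA-seq data hold 3 libraries from cells made to overexpress Aqp1, a water channel of the plasma membrane (named C6-AQP1), and 3 from C6 control cells without this overexpression. According to the methods, AQP1 was introduced with a vector in which the CMV promoter drives the insert and which also carries CopGFP and puromycin resistance. The study's qPCR and protein checks used a control line named after the vector, C6-Pcdh. The sources used here do not say whether the sequenced C6 control libraries came from that line, nor how many clones make up C6-AQP1 or whether replicate libraries were grown as separate cultures. The p-values therefore set the difference between groups only against the spread of these libraries within a group, and that spread may be technical.

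Purine nucleotides are built step by step on a phosphoribosyl group until inosine monophosphate is reached, which is then turned into adenine or guanine nucleotides. Pyrimidine nucleotides are built as a free ring that is joined to phosphoribose afterwards, giving UMP and then CTP. Deoxynucleotides for DNA are made by reducing ribonucleotides, dTMP is made from dUMP with a folate-bound carbon unit, and salvage enzymes return bases and nucleosides to the pool. Many genes of deoxynucleotide supply are known for high expression in S phase.

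The totals of the expected counts lay between 19054251 and 52725877 per library, with the lowest total in replicate 1 of either group. Levels are given as normalized CPM, that is CPM after TMM scaling of the libraries, without correction for gene length, so they are compared between groups and not between genes. A gene rose or fell in C6-AQP1 cells where the quasi-likelihood test of edgeR gave an adjusted p under 0.05, and it was a DEG where it also differed more than 2-fold. Log2 fold changes (log2FC) are C6-AQP1 relative to C6 control, with the standard error (SE) where given. Aqp1 (ENSRNOG00000011648) had 347, 352 and 349 normalized CPM in the C6 control libraries and 1052, 1064 and 1057 in the C6-AQP1 libraries. Glial and neural progenitor markers were present, with 9 of 11 in the table (Sox9 and Fabp7 were not analysed here). Their summed level was 4403 to 4492 normalized CPM in control and 6286 to 6505 in C6-AQP1 libraries. All 9 rose and 3 of them were DEGs, with the largest log2FC, 3.57, in Gfap (mean 14.0 in control and 167 in C6-AQP1 libraries). Of 10 microglia and macrophage markers 2 were in the table, with summed levels of 73.5 to 76.7 in control and 47.5 to 50.4 in C6-AQP1 libraries, of which Cd14 fell (log2FC -0.78) and P2ry12 rose (1.22). Endothelial markers had 2 of 6 in the table (79.2 to 82.4 and 42.2 to 46.4), of which Flt1 fell (-1.13) and Tek rose (1.66). Neuronal markers had 5 of 8 (130 to 133 and 284 to 291), with 2 rises, 1 fall and 2 that did not pass. Oligodendrocyte markers had 3 of 6 (129 to 133 and 619 to 628), with 2 rises and 1 that did not pass, and fibroblast markers 4 of 8 (735 to 742 and 1306 to 1330), all of which rose. These marker counts are to be read beside all measured genes, of which 81.5% passed the test, 40.7% falling and 40.8% rising. The part of these markers in the results was not tested. In bulk RNA, fewer cells expressing a gene and less RNA of it per cell cannot be told apart.

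In C6-AQP1 cells most genes of nucleotide synthesis were lower, and deoxynucleotide supply had the lowest median change of the 5 functions. Of the 38 genes, 30 fell, 7 rose and 1 did not pass the test. Over all 12121 genes 81.5% passed, 40.7% falling and 40.8% rising. The median log2 fold change was -0.60 over the 38 genes and 0.00 over all genes. In the same 30 genes every C6-AQP1 library lay below every control library, and in the same 7 every one lay above, where the groups did not overlap for 82.5% of all genes, 41.3% in each direction. There were 9 DEGs among the lower and 1 among the higher genes, where 14.1% of all genes were DEGs, 4.35% lower and 9.74% higher. Nearest to the 2-fold threshold were Rrm1, just inside at -1.09, and Tyms, just outside at -0.90 on the log2 scale. Of 25 listed genes of S phase and mitosis 24 were measured and all 24 fell as well, with a median log2 fold change of -1.12. Their summed level was 5146 to 5201 normalized CPM in control and 2551 to 2580 in C6-AQP1 libraries, and the part of cell cycle state in the results given here was not tested.

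**Figure D1:**
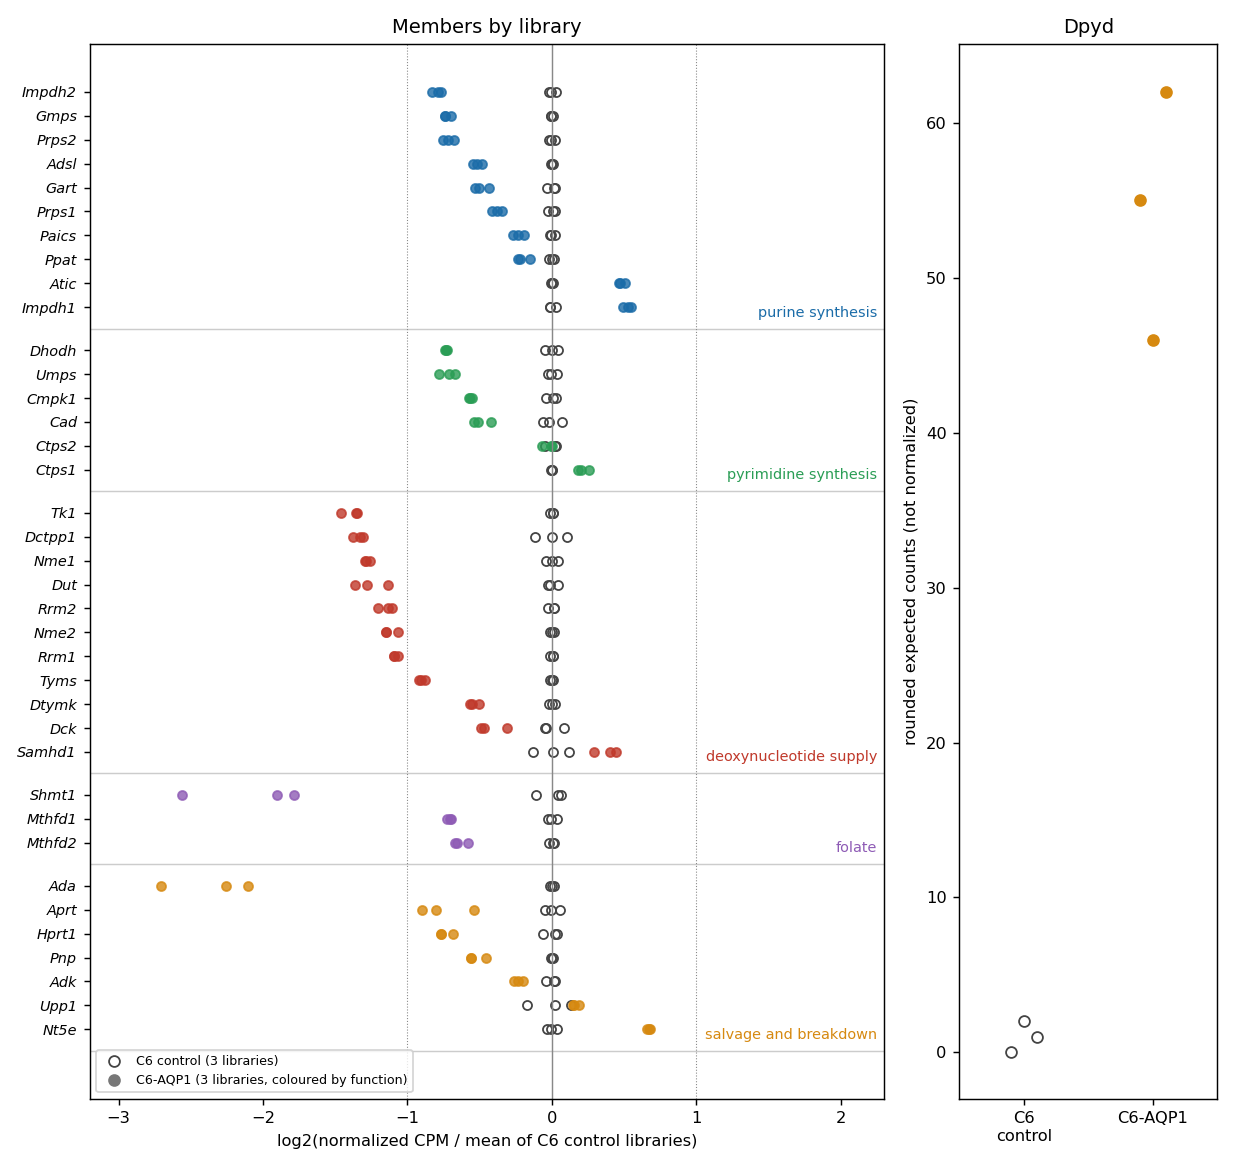
Left, normalized CPM of 37 nucleotide metabolism genes in each library on a log2 scale, relative to the mean of the 3 C6 control libraries (open circles C6 control, filled circles C6-AQP1, dotted lines 2-fold). Right, rounded counts of Dpyd in each library, 0 to 2 in C6 control and 46 to 62 in C6-AQP1. The filled points lie left of the open points for 30 genes, and only for Ctps2 do the groups overlap.

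Genes of deoxynucleotide supply gave 10 falls and 1 rise among 11, with a median log2 fold change of -1.13, and 7 of them were DEGs. Of all genes 40.7% fell, 40.8% rose and 14.1% were DEGs. Summed over the 11 genes, the level was 1853, 1843 and 1824 normalized CPM in the C6 control libraries and 878, 862 and 855 in the C6-AQP1 libraries, a ratio of 0.470. Such sums are weighted toward the genes with most counts. By comparison the summed ratio was 0.924 for purine synthesis, 0.850 for pyrimidine synthesis, 0.614 for folate and 1.00 for salvage and breakdown. The purine sum holds Atic, whose mean rose from 325 to 454, although 8 of 10 genes fell. The salvage sum holds Nt5e, whose mean rose from 192 to 305, although 5 of 8 genes fell. These differences between groups of genes were not tested.

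Ribonucleotide reductase, which turns ribonucleotides into deoxyribonucleotides, is made of a large subunit encoded by Rrm1 (ENSRNOG00000045752) and a small subunit encoded by Rrm2 (ENSRNOG00000054286). Rrm1 had 480.2, 482 and 473 normalized CPM in the C6 control libraries and 228, 224 and 224 in the C6-AQP1 libraries, log2FC -1.09 ± 0.02 (SE, adjusted p = 1.5e-21). Rrm2 had 233, 227 and 234 in control and 108, 106 and 100.3 in C6-AQP1 libraries, log2FC -1.15 ± 0.03 (SE, adjusted p = 8.0e-20). Both subunits were thus lower in each C6-AQP1 library than in any control library, 2.12-fold and 2.22-fold on average. Rrm2b, the other small subunit, which is known for use outside S phase, had 5.61, 5.34 and 5.22 in control against 7.63, 6.78 and 7.54 in C6-AQP1 libraries and rose, with log2FC 0.44 ± 0.10 (SE, adjusted p = 3.3e-04). The log2 ratio of Rrm2 to Rrm2b within a library went from 5.38, 5.41 and 5.48 in control to 3.82, 3.96 and 3.73 in C6-AQP1, a difference of -1.59.

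The members of the thymidine branch, Tk1, Dut, Tyms and Dtymk, all fell, though not by the same amount. Tk1 (ENSRNOG00000047314), the cytosolic thymidine kinase of salvage, had 217, 217 and 214 normalized CPM in control and 78.7, 84.9 and 84.2 in C6-AQP1 libraries, log2FC -1.38 ± 0.03 (SE, adjusted p = 5.8e-21). Dut (ENSRNOG00000007221), the dUTPase that yields dUMP and keeps uracil out of DNA, had 84.1, 87.2 and 83.1 in control against 38.7, 32.99 and 34.9 in C6-AQP1 libraries, log2FC -1.27 ± 0.04 (SE, adjusted p = 4.3e-15). Tyms (ENSRNOG00000037225), thymidylate synthase, had 71.1, 70.8 and 70.03 in control against 37.4, 37.6 and 38.4 in C6-AQP1 libraries, log2FC -0.90 ± 0.03 (SE, adjusted p = 3.2e-16). All of these groups lay clearly apart, Tk1 and Dut past 2-fold and Tyms below it. Dtymk, the kinase that follows both routes to dTMP, went from 104 ± 1.61 to 71.7 ± 1.57 normalized CPM (SD, n = 3), with log2FC -0.54 (adjusted p = 2.2e-13). Tk2, the mitochondrial thymidine kinase, did not pass the test, at 8.48, 7.15 and 8.25 in control against 9.58, 9.35 and 8.08 in C6-AQP1 libraries, with overlapping groups. Its log2FC was 0.18 (95% interval -0.02 to 0.37, adjusted p = 0.0835), and it passed with upper-quartile scaling (adjusted p = 0.0400), with library totals (0.0270) and without C6-AQP1 replicate 3 (0.0284), with a range of 0.0270 to 0.344 over all alternatives.

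Dctpp1 (ENSRNOG00000017850), which breaks down dCTP and modified cytosine nucleotides, had 27.6, 32.2 and 29.98 normalized CPM in control and 12.1, 11.9 and 11.5 in C6-AQP1 libraries, log2FC -1.35 ± 0.06 (SE, adjusted p = 1.3e-14). The nucleoside diphosphate kinases Nme1 (ENSRNOG00000002693) and Nme2 (ENSRNOG00000002671), which make triphosphates from diphosphates and lie next to each other in the genome, both fell. Nme1 had 139, 135 and 131 in control and 56.4, 54.98 and 55.3 in C6-AQP1 libraries, log2FC -1.28 ± 0.03 (SE, adjusted p = 9.6e-20). Nme2 had 464, 459.8 and 455 in control against 219.7, 207 and 207 in C6-AQP1 libraries, log2FC -1.13 ± 0.02 (SE, adjusted p = 1.0e-20). For these genes too no C6-AQP1 library reached the lowest control library. Dck, the deoxycytidine kinase, fell less, from 17.97 ± 0.964 to 13.4 ± 0.926 normalized CPM (SD, n = 3, adjusted p = 3.9e-06). Samhd1, the enzyme that hydrolyses deoxynucleoside triphosphates, was the 1 gene of the group to rise, with 13.1, 11.1 and 12.2 in control and 14.9, 16.5 and 16.00 in C6-AQP1 libraries, log2FC 0.40 ± 0.07 (SE, adjusted p = 3.0e-05).

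**Figure D2:**
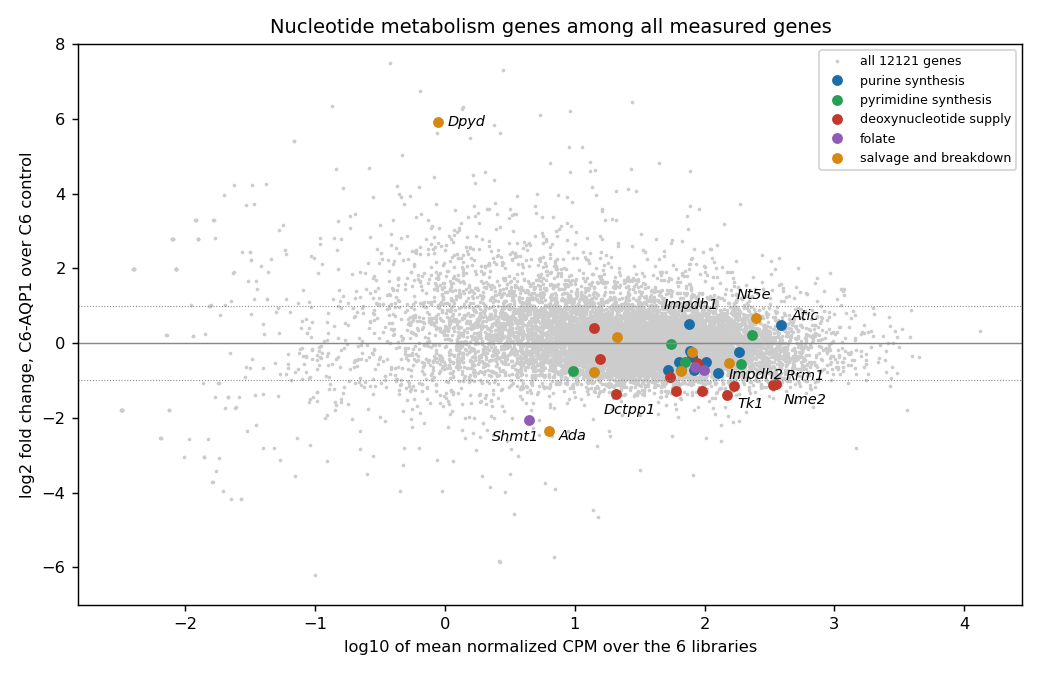
Log2 fold change of C6-AQP1 over C6 control against the log10 of the mean normalized CPM, for all 12121 genes (grey, 7 lie outside the plotted range or have no counts) and for the 38 nucleotide metabolism genes coloured by function, with dotted lines at 2-fold. The red points of deoxynucleotide supply lie mostly near or below the lower dotted line, with Tk1 at -1.38, while Dpyd lies at 5.91.

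Promoters of these genes were compared because so many of them moved together. RefSeq gave 36 windows for 34 of the 38 genes (build GRCr8), and the 250 bases before the annotated start were searched on both strands. The words TTTCGCGC, TTTGGCGC, TTTCCCGC and TTTGCCGC, forms of the site bound by E2F factors, stood in 3 of the 36 windows (8.33%), those of Tyms, Shmt1 and Ppat, and in 1.73% of all 33469 RefSeq windows. The word CACGTG, the E-box, stood in 3 windows (8.33%), those of Atic, Dtymk and Shmt1, against 5.59% of all, and CCAAT in 12 windows (33.3%) against 34.0%. Of the genes with an E2F word, Shmt1 was a DEG and Tyms fell less than 2-fold. Ppat had the smallest fall of the 30 falling genes (log2FC -0.20). None of the 7 DEGs of deoxynucleotide supply had an E2F word in a window, and Rrm2, 1 of them, had no window. No matched word overlaps another in the windows shown. A match describes letters only, a missing match says only that these letters are not in this window, and the motifs were chosen after the expression values were known. The windows shown are those of Tyms, with an E2F word at positions -37 to -30, of Shmt1, which holds all 3 kinds of word, of Dctpp1, with CCAAT at 3 places, and of Atic, a gene that rose and holds an E-box at -50 to -45. Capitals mark the matched words, read on either strand, so GCGCCAAA is the reverse complement of TTTGGCGC and ATTGG that of CCAAT.
Tyms (chr9:120776084-120776333, minus strand): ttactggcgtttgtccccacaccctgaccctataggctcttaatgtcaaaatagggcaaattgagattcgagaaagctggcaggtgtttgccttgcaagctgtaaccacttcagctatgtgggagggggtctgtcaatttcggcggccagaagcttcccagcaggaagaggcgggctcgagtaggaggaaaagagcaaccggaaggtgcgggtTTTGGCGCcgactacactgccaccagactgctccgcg
Shmt1 (chr10:45990342-45990591, minus strand): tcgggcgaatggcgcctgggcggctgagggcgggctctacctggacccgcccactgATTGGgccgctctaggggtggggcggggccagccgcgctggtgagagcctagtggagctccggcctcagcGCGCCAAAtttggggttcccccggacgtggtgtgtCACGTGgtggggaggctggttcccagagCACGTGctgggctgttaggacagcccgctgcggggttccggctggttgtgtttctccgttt
Dctpp1 (chr1:191311327-191311576, minus strand): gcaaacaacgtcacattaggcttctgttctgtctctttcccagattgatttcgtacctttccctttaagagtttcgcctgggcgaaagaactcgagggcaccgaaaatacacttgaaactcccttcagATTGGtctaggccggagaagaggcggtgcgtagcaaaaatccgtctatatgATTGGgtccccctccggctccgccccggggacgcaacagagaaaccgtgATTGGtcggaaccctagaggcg
Atic (chr9:80614061-80614310, plus strand): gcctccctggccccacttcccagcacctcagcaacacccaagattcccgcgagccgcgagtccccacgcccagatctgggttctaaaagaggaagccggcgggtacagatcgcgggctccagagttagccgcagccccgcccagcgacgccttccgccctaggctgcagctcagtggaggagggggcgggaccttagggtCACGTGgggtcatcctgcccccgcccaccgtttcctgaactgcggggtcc

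All 3 folate genes fell, where 40.7% of all genes did, with a median log2FC of -0.71. Shmt1 (ENSRNOG00000005275), the cytosolic serine hydroxymethyltransferase that loads carbon units onto folate, had 7.31, 6.57 and 7.41 normalized CPM in control and 1.89, 2.06 and 1.21 in C6-AQP1 libraries, log2FC -2.06 ± 0.16 (SE, adjusted p = 2.3e-10). These are low levels, and C6-AQP1 replicate 3 was the lowest library. Mthfd1, the cytosolic enzyme that interconverts folate-bound carbon units, went from 124 ± 2.76 to 75.6 ± 0.752 (SD, n = 3), log2FC -0.71 (adjusted p = 7.6e-16). Mthfd2, a mitochondrial enzyme of the same pathway, went from 103 ± 1.39 to 66.2 ± 2.18, log2FC -0.64 (adjusted p = 2.0e-14). The mitochondrial Shmt2 and Mthfd1l had log2FC values of -0.40 and -0.43 (adjusted p = 7.6e-12 and 5.6e-13). Both belong to a wider list of the folate cycle and its transport, in which 10 of 18 measured genes fell and 7 rose. Phgdh, the first enzyme of serine synthesis, had log2FC -0.29 (adjusted p = 1.1e-09).

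In purine synthesis 8 genes fell and 2 rose among 10, with a median log2FC of -0.44 and no DEG. Of all genes 40.7% fell, 40.8% rose and 14.1% were DEGs. The branch to guanine nucleotides held the largest falls and 1 of the rises. Impdh2 (ENSRNOG00000031965), an IMP dehydrogenase known for its induction in dividing cells, had 165, 161 and 159 normalized CPM in control and 94.7, 93.6 and 90.9 in C6-AQP1 libraries, log2FC -0.80 ± 0.03 (SE, adjusted p = 4.1e-17). Impdh1 (ENSRNOG00000020032), the other IMP dehydrogenase, had 61.7, 61.8 and 63.7 in control and 87.9, 91.1 and 89.8 in C6-AQP1 libraries, log2FC 0.52 ± 0.03 (SE, adjusted p = 6.2e-13). Within each library, the log2 ratio of Impdh1 to Impdh2 counts was -1.42, -1.38 and -1.32 in control and -0.11, -0.04 and -0.02 in C6-AQP1 cells. The groups did not overlap, and the ratio differed by 1.32 on the log2 scale, in which gene length cancels. Gmps, which makes GMP in the next step, went from 103 ± 0.6796 to 62.4 ± 0.974 normalized CPM (SD, n = 3), log2FC -0.73 (adjusted p = 7.4e-16).

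The steps that lead to inosine monophosphate did not move as 1 block. Prps1 and Prps2, which make the phosphoribosyl donor, had log2FC values of -0.38 and -0.72 (adjusted p = 1.9e-10 and 3.4e-14). Ppat, the enzyme of the committed step, had 81.9, 83.8 and 83.02 in control and 70.5, 74.5 and 71.1 in C6-AQP1 libraries, and Paics, which acts later, 198, 202 and 197 in control against 174, 169 and 165 in C6-AQP1 libraries, with log2FC of -0.20 and -0.24 (adjusted p = 3.6e-06 and 1.3e-08). In RefSeq both genes overlap on opposite strands, and without a stated strand setting any reads from the overlap could belong to either. Ppat had whole counts in every library, while Paics had counts that were not whole. Gart and Adsl, which act in the middle of the pathway, had log2FC values of -0.49 and -0.51 (adjusted p = 1.3e-12 and 2.1e-12). Atic (ENSRNOG00000015511), the enzyme of the last steps to inosine monophosphate, rose instead, with 326, 325 and 324 in control and 450.0, 462 and 449 in C6-AQP1 libraries, log2FC 0.48 ± 0.02 (SE, adjusted p = 1.3e-15). Its window, shown above, is the only one of a rising gene that holds an E-box.

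Pyrimidine synthesis had 4 falls, 1 rise and 1 gene that did not pass, with a median log2FC of -0.53 and no DEG. Of all genes 40.7% fell, 40.8% rose and 14.1% were DEGs. Cad, the fused enzyme of the first steps, went from 83.2 ± 3.88 to 59.2 ± 2.498 normalized CPM (SD, n = 3), log2FC -0.49 (adjusted p = 3.9e-10). Dhodh, the mitochondrial step, and Umps, which makes UMP, had log2FC values of -0.74 and -0.72 (adjusted p = 7.8e-09 and 1.8e-14), close to each other. Cmpk1, the UMP and CMP kinase, went from 228 ± 5.397 to 154 ± 1.09, log2FC -0.56 (adjusted p = 2.5e-15). The CTP synthases did not follow them. Ctps1 had 214, 215 and 215 in control and 257, 247 and 244 in C6-AQP1 libraries and rose, with log2FC 0.21 ± 0.02 (SE, adjusted p = 2.4e-08). Ctps2 had 56.3, 56.2 and 53.4 in control against 52.8, 55.3 and 55.2 in C6-AQP1 libraries, with overlapping groups and log2FC -0.02 (95% interval -0.09 to 0.06, adjusted p = 0.682), whose sign differed between scalings.

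Salvage and breakdown genes were split, with 5 falls and 3 rises among 8 and a median log2FC of -0.38. Of all genes 40.7% fell and 40.8% rose, so a split as such does not set these genes apart. Ada (ENSRNOG00000010265), adenosine deaminase, had 10.5, 10.6 and 10.4 normalized CPM in control and 2.202, 2.45 and 1.61 in C6-AQP1 libraries, log2FC -2.34 ± 0.12 (SE, adjusted p = 1.5e-13), the largest fall of the 38 genes in the fit. The salvage enzymes Hprt1, for hypoxanthine and guanine, and Aprt, for adenine, had log2FC values of -0.73 and -0.76 (adjusted p = 3.0e-14 and 8.6e-09). Pnp, which splits purine nucleosides, went from 181 ± 0.849 to 126 ± 5.32, and Adk, the adenosine kinase, from 87.1 ± 2.09 to 74.3 ± 1.51 (SD, n = 3, adjusted p = 7.8e-14 and 2.9e-07). Nt5e (CD73), the surface enzyme that makes adenosine from AMP, rose, with 197, 191 and 187 in control and 307, 306 and 303 in C6-AQP1 libraries, log2FC 0.67 ± 0.02 (SE, adjusted p = 4.1e-17). Upp1, uridine phosphorylase, had 21.7, 17.6 and 20.1 in control against 22.5, 22.02 and 21.9 in C6-AQP1 libraries, log2FC 0.17 (adjusted p = 0.0192), and this small rise did not pass without C6-AQP1 replicate 2 (adjusted p = 0.0507) or without C6 control replicate 2 (adjusted p = 0.176), with 0.00118 to 0.176 over all alternatives.

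Dpyd (ENSRNOG00000017105), which starts the breakdown of uracil and thymine, had 2, 1 and 0 counts in the C6 control libraries and 46, 62 and 55 in the C6-AQP1 libraries. The ratio of normalized counts was 65.9 (95% exact interval 22.2 to 323, counting error only). The fitted log2FC was 5.91 (adjusted p = 1.8e-09), and it was 7.01 without C6 control replicate 1 and 5.22 without C6 control replicate 3. In the C6-AQP1 libraries Dpyd reached at most 2.36 normalized CPM, which is still a low level. Because the deposited table keeps a gene when it is expressed in at least 1 group, Dpyd could enter it through the C6-AQP1 group alone.

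Pairs of genes that share a step, an enzyme or a genome position were compared through their ratio within each library, which shows whether they changed unequally. In 8 of 9 pairs the groups did not overlap. For single genes they did not overlap in 82.5% of all genes, and no such share was obtained for other pairs. With 3 against 3 libraries, groups that do not overlap give the smallest possible p, 0.10, in an exact two-sided permutation test (adjusted p = 0.113 over the 9 pairs). This test therefore cannot pass 0.05. The ratios of Shmt1 to Shmt2, Rrm2 to Rrm2b and Tk1 to Tk2 differed the most, all being lower in C6-AQP1 libraries. The difference on the log2 scale was -1.68 for Shmt1 to Shmt2, -1.59 for Rrm2 to Rrm2b and -1.56 for Tk1 to Tk2. It was 1.32 for Impdh1 to Impdh2, which was higher in C6-AQP1 libraries. For Prps1 to Prps2 it was 0.34, for Ctps1 to Ctps2 0.24 and for Nme1 to Nme2 -0.16. The smallest differences were 0.06 for Rrm1 to Rrm2 and 0.03 for Ppat to Paics, the pair whose groups overlapped (p = 0.60 in the exact permutation test).

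**Figure D3:**
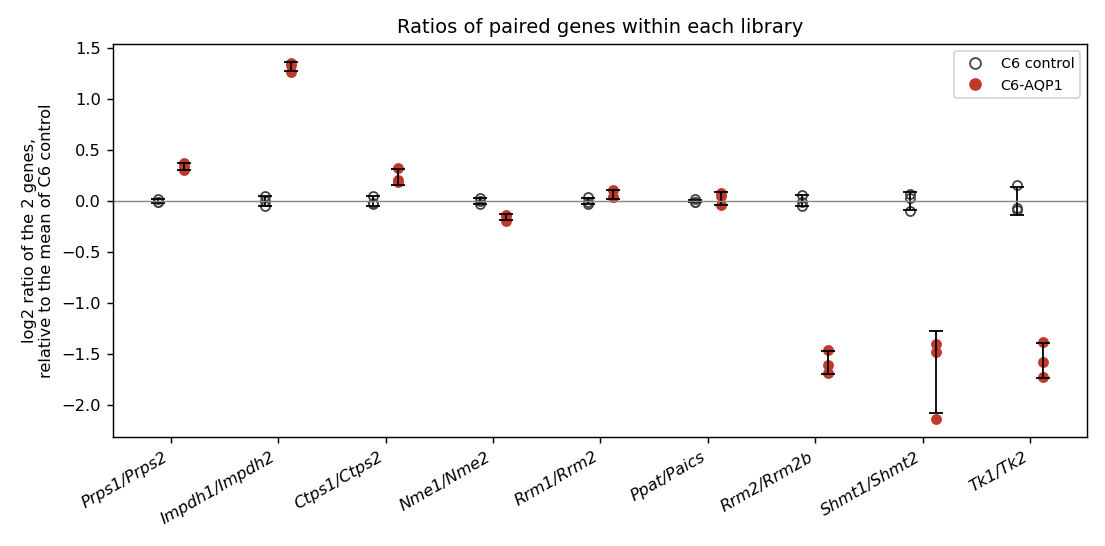
Log2 ratio of the normalized CPM of paired genes in each library, relative to the mean of the 3 C6 control libraries (open circles C6 control, filled circles C6-AQP1, bars mean ± SD, n = 3). Impdh1/Impdh2 lies 1.32 higher in C6-AQP1 cells, while Rrm2/Rrm2b, Shmt1/Shmt2 and Tk1/Tk2 lie -1.59, -1.68 and -1.56 from the control mean.

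The wider pathways, listed by function, were more evenly split than the 38 genes. Of 87 measured genes of nucleotide, folate and related metabolism, 43 fell, 31 rose and 13 did not pass, with a median log2FC of -0.10. Over all 12121 genes 81.5% passed, 40.7% falling and 40.8% rising, and each list below is to be read beside these shares. Enzymes of ribose phosphate supply had 8 falls and 1 rise among 9, with a median of -0.62, and the 3 genes of serine synthesis all fell. In the folate cycle and its transport 10 fell and 7 rose among 18. The methionine cycle had 4 rises and 1 fall among 6, and pyrimidine salvage and breakdown 4 rises and 3 falls among 9. Among purine interconversion genes 6 fell and 5 rose of 15, while 4 of 5 other nucleoside diphosphate kinases fell and 1 rose. In nucleotidases and enzymes that clean the nucleotide pool 8 rose and 7 fell among 20, and of 2 nucleoside transporters 1 rose and 1 fell.

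There were 8 DEGs among the 87 genes of these wider lists, 4 in each direction. Over all genes 14.1% were DEGs, 4.35% lower and 9.74% higher. Itpa, which removes inosine triphosphate from the pool, went from 46.8 ± 1.83 to 19.4 ± 0.341 normalized CPM (SD, n = 3), log2FC -1.26 (adjusted p = 1.4e-16). Gmpr, which turns GMP back into IMP, Nme6, a further nucleoside diphosphate kinase, and Ak6, an adenylate kinase of the nucleus, had log2FC values of -1.18, -1.05 and -1.05 (adjusted p = 5.9e-09, 3.9e-10 and 1.2e-18). With library totals Nme6 and Ak6 were at -0.998 and -0.994, just short of 2-fold. Gda, which deaminates guanine, rose from 37.1 ± 0.862 to 106 ± 1.74 normalized CPM, log2FC 1.52 (adjusted p = 1.5e-20). Rises past 2-fold also included Amt of glycine cleavage and the ectonucleotidase Entpd2, at 1.59 and 3.08 (adjusted p = 9.6e-07 and 1.0e-08), both from control levels below 1 normalized CPM. Of the cell cycle genes, Mki67, Pcna and Top2a had log2FC values of -0.51, -1.20 and -1.15 (adjusted p = 9.4e-17, 8.5e-21 and 1.5e-22).

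**Figure D4:**
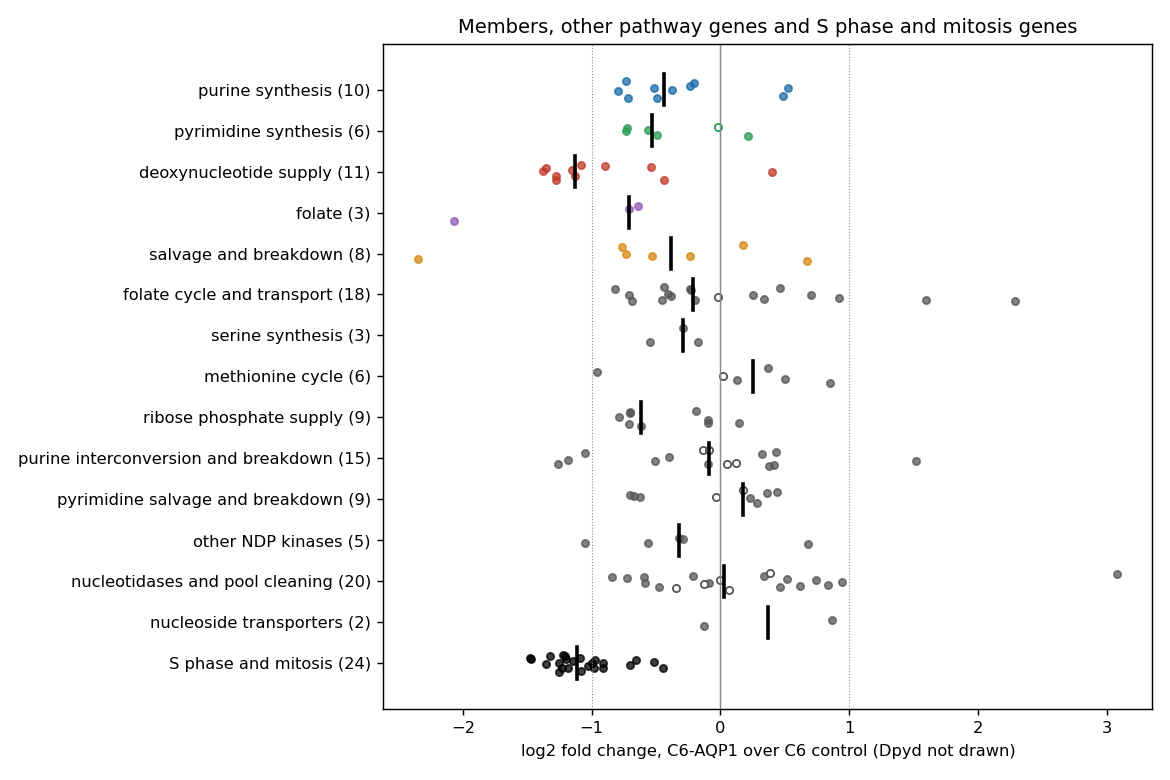
Log2 fold change of each gene (points) by list, Dpyd not drawn, with the number of measured genes in parentheses and the median as a black bar. Filled points passed an adjusted p of 0.05 in edgeR, open points did not, and dotted lines mark 2-fold. The medians of deoxynucleotide supply (-1.13) and of S phase and mitosis (-1.12) lie furthest to the left.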

How the data were processed

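RNA was sequenced in 3 C6-AQP1 and 3 C6 control libraries. As the methods and the submitters' processing notes give it, reads were checked with FastQC (0.11.2), trimmed with Trimmomatic (0.36), aligned to rn6 with STAR (2.5.1b) and quantified with RSEM (1.2.29). The labels describe amplified cDNA and single reads, and the methods paired-end reads. The authors deposited expected counts for 12121 genes, estimates without normalization that need not be whole numbers, for genes with a mean TPM above 1 in a group, although 3 listed genes have no count in any library. RSEM divides reads shared between genes, and among the genes described only Paics, Rrm2 and Hprt1 had counts that were not whole. In RefSeq, 9 of them (Adk, Ctps1, Ctps2, Gart, Impdh2, Nt5e, Paics, Ppat and Rrm2) overlap another protein-coding gene, and the sources used here do not state whether counting used strand.

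Expected counts were rounded, scaled by TMM and tested in edgeR 4.0.16 (R 4.3.3) by the robust quasi-likelihood test without covariates, with Benjamini-Hochberg adjustment over all 12121 genes. The steps were run on simulated data in which far fewer genes changed than were called here. That test therefore cannot show how scaling and error rates behave in these data. Standard errors come from the fold change and the test statistic. As in the methods, DEGs passed an adjusted p of 0.05 and differed more than 2-fold. Replicates of a group differed by more than sampling noise (chi-square per degree of freedom 2.15 to 4.29). Genes and lists were chosen with earlier results of these data known. The text names all members, wider-pathway DEGs and a few further listed genes (Shmt2, Rrm2b, Tk2, Mthfd1l, Phgdh, Mki67, Pcna, Top2a, Aqp1), and some genes under this rule are not reported here. Alternatives were DESeq2 1.42.0, limma-voom (limma 3.58.1), other scalings, a low-count filter, a replicate block and left-out libraries.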

Additional observations from a re-analysis of the deposited data

How the results depend on the processing

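The counts of rises, falls and DEGs stayed within 1.5 times their values under all 15 alternatives, and the same 10 of the 38 genes were DEGs in each of them. There were 30 falls throughout and 7 rises, except 6 without C6-AQP1 replicate 2 and 6 without C6 control replicate 2, where Upp1 no longer passed. The median log2 fold change of the 38 genes, -0.60, was -0.57 with upper-quartile scaling and -0.55 with library totals, which shift the median of all genes by 0.03 and 0.05, and between -0.61 and -0.59 with single libraries left out. Of the 38 genes, 37 kept their direction under every scaling. Ctps2, which did not pass in any setting, changed sign to 0.0188 with upper-quartile scaling, 0.0378 with library totals, 0.00104 without C6-AQP1 replicate 1, 0.00573 without C6 control replicate 2 and 0.0106 without both shallower libraries, and ranged from -0.0352 to 0.00573 with single libraries left out. With the replicate number as a block, 7 genes rose, 30 fell and 10 were DEGs, while calls over all genes went from 9878 to 9982. Libraries of the same number did not pair consistently. Their deviations from the group means correlated at -0.04 to 0.27, and the replicate 1 libraries gave the highest value of any pair, 0.27. C6-AQP1 replicate 2 correlated best with C6 control replicate 3 (0.24), and C6-AQP1 replicate 3 with C6 control replicate 2 (0.15). The difference in log2 ratio of each gene pair kept its sign with a prior count of 2 and with each library left out. Depth limits mainly Dpyd, whose 3 control counts set its interval, and then Shmt1 and Ada, with the lowest levels among the genes that fell.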

Other observations

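The Entpd and Enpp nucleotidases of the wider lists, singled out after their values were seen, did not move in 1 direction, and no test was made of them as a group. Of 8 measured, 5 rose, 1 fell and 2 did not pass, where 81.5% of all genes passed the test. Entpd1 (CD39), which converts extracellular ATP and ADP to AMP, had 10.9, 11.3 and 11.3 normalized CPM in the C6 control libraries and 19.5, 20.7 and 19.5 in the C6-AQP1 libraries, log2FC 0.83 ± 0.06 (SE, adjusted p = 5.5e-11). Entpd2, which prefers ATP, had 0.269, 0.155 and 0.117 in control and 1.33, 1.48 and 1.35 in C6-AQP1 libraries, low levels in both groups. Entpd4 and Entpd7 had log2FC values of 0.52 and 0.74 (adjusted p = 8.7e-13 and 1.8e-04), while Entpd5 and Entpd6, at -0.01 and -0.13, did not pass (adjusted p = 0.8596 and 0.117). Enpp1, which also cleaves extracellular ATP, had 512, 514 and 509.6 in control and 341, 341 and 342 in C6-AQP1 libraries, log2FC -0.58 ± 0.02 (SE, adjusted p = 1.7e-17). Its relative Enpp3 went the other way, with 2.42, 2.34 and 2.33 in control and 3.07, 3.29 and 3.33 in C6-AQP1 libraries, log2FC 0.46 ± 0.14 (SE, adjusted p = 0.00451).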
